A study of Mus musculus with 6 samples.

Results

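ISG15 is a small ubiquitin-like protein that is joined to other proteins by an enzyme chain, and the 6 genes described here encode that chain: the modifier Isg15, its activating enzyme (E1) Uba7, its carrier enzyme (E2) Ube2l6, the ligases Herc6 and Trim25, and Usp18, the protease that takes ISG15 off again. They were chosen by symbol from the 24493 genes of the deposited table, all 6 were found, and all 6 passed the filter on low values, as did 12141 genes of the table. The series holds mRNA sequencing of mouse cells labelled Treg (regulatory T), cultured from naive CD4 T cells of the spleen. There were 3 Ifnar1-SA and 3 wild-type (WT) libraries, and the labels used here give no age, sex, strain, culture additives or time. Ifnar1 is 1 of the 2 subunits of the receptor for type I interferons. The SA allele is known from the literature as a knock-in that swaps a serine needed for the receptor's breakdown for alanine, which stabilises it. Whether libraries within a genotype are separate animals, cultures or repeat preparations is not stated, so the tests below speak only of the spread among these 6 libraries, part of which may be technical.

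Type I interferon switches on most genes of this chain through a transcription factor complex, named ISGF3, which binds interferon-stimulated response elements in promoters. The conjugates and free ISG15 act in antiviral defence. USP18 has a further role that does not need its protease activity: it is held at the receptor chain IFNAR2 through STAT2 and damps interferon signalling. In mice HERC6 is the main ISG15 ligase, a part that HERC5 plays in humans. TRIM25 also acts as a ubiquitin ligase.

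Because all members are linked to interferon, their promoters were searched for the core of the response element, spelled GAAA, any 2 bases, GAAA, and read on both strands. RefSeq promoter windows on GRCm38.p6, from 250 bases before to 50 bases after the annotated start, were at hand for 5 members. For Usp18 none was used. The core was in the window of 1 of these 5, Isg15. It was in 3.49% of all 27025 RefSeq promoters at hand, and in 3.20% of the 8918 that belong to genes tested. Isg15 had 3 overlapping matches on the gene's strand, from −78 to −57 with the start counted as 0. A second motif, a STAT site spelled TTC, any 3 bases, GAA, reads alike on both strands. It was in 0 of the 5 windows, in 8.47% of all promoters and in 7.23% of those of genes tested. Absence says only that these letters are not in the window. The windows of the 3 members whose libraries did not overlap between the genotypes are shown 5′ to 3′ on the gene's strand, with capitals for matches to the response element core.
Isg15, chr4:156200769-156201068, minus strand: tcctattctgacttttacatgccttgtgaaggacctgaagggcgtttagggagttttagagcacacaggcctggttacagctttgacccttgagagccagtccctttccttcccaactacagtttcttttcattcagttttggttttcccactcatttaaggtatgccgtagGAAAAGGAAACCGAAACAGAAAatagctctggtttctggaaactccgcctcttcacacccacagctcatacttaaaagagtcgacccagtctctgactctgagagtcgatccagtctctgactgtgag
Uba7, chr9:107975317-107975616, plus strand: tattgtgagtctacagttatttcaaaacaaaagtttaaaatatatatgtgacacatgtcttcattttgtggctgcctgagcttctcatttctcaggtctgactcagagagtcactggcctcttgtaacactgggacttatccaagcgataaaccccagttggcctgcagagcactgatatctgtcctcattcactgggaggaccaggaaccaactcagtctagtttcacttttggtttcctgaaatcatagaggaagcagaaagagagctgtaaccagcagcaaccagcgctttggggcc
Herc6, chr6:57580742-57581041, plus strand: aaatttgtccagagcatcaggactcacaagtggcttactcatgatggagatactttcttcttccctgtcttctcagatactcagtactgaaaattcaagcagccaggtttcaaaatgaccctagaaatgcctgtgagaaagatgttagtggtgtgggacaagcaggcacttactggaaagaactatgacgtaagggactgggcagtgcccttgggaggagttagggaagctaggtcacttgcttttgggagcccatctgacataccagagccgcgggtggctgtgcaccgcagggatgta

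Values are TPM, shares of transcripts that divide out gene length and add up to 1000000 per library, so the read depth behind a value is unknown. The libraries had 21925 to 22958 genes above 0. Ifnar1-SA 1 and WT 2 stood apart from the other libraries. Their median TPM over the genes tested was 9.56 and 9.82, against 7.42 to 8.38 in the other 4. Among short transcripts, the ribosomal protein gene Rps29, for example, was at 2619 TPM in Ifnar1-SA 1 and 3486 TPM in WT 2. In the other 4 it was at 8021 to 9981 TPM. Since TPM are shares, less of an abundant transcript raises the rest, so the medians are no separate evidence on longer transcripts. WT 3 had 0 TPM of the Y-linked Eif2s3y, against 10.9 to 23.2 TPM in the other 5 libraries. Ddx3y, also Y-linked, was at 0.110 TPM in WT 3, against 2.46 to 5.59 TPM in those 5. The X-linked Xist was at 3.37 to 8.08 TPM over all libraries. Only WT thus held a library nearly without these Y-linked transcripts, and the cause was not tested. The T cell genes Cd3e, Cd3g and Cd4 were at 90.2 to 978 TPM throughout, whereas Foxp3, which defines Treg cells, was at 0.746, 1.82 and 0.759 TPM in Ifnar1-SA and at 0.697, 0.295 and 0.276 TPM in WT. The 7 Treg markers summed to 3588 to 4431 TPM in Ifnar1-SA and 3500 to 4172 TPM in WT, nearly all of it Tnfrsf18, Ctla4 and Il2ra, which activated T cells also express. Lrrc32, Itgae and Ikzf2 were at most 2.73 TPM in any library. Ctla4, a checkpoint receptor, was at 778, 876 and 762 TPM in Ifnar1-SA, against 698, 544 and 482 TPM in WT, with no overlap (log2 difference 0.50, limma, adjusted p = 0.9997), and its part in the results below was not tested. The 9 macrophage and dendritic markers summed to 10.8 to 13.6 TPM in Ifnar1-SA and 9.29 to 16.7 TPM in WT. Sums of the 7 neutrophil and mast cell markers did not overlap, at 17.1 to 22.6 TPM in Ifnar1-SA and 7.57 to 11.2 TPM in WT. Nearly all of that difference was Ly6g, a member of a gene family that T cells also express, while S100a8 was at 0 in all Ifnar1-SA libraries and Mpo was at most 0.157 TPM in any library. Sums of the 6 CD8 T and NK markers (12.2 to 17.96 TPM in Ifnar1-SA, 12.5 to 20.0 TPM in WT) and of the 5 B cell markers (3.59 to 9.17 TPM in Ifnar1-SA, 4.05 to 11.4 TPM in WT) overlapped. In bulk RNA, more cells with a transcript and more transcript per cell cannot be told apart.

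All 6 members had a higher mean log2 level in Ifnar1-SA than in WT, while 37.1% of all genes tested did. Isg15 and Usp18 had the largest differences and Ube2l6 the smallest. The median log2 fold change was 0.81 over the 6 members and −0.06 over the whole table tested. With limma, 0 of the 6 passed an adjusted p of 0.05, beside 0.0165% of all genes tested that passed as higher, and the lowest adjusted p among the members was 0.838. At an unadjusted p under 0.05 there were 4 members (Isg15, Uba7, Herc6 and Trim25), all higher in Ifnar1-SA, beside 1.44% of all genes that were so and higher. Every Ifnar1-SA library lay above every WT library for 3 members, Isg15, Uba7 and Herc6, beside 1.97% of all genes. The 7 genes that did pass over all genes were all microRNA loci listed at 0 in every library of 1 genotype. The members were chosen with earlier results in view, so these counts describe them and test nothing about the chain as a whole.

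**Figure D1:**
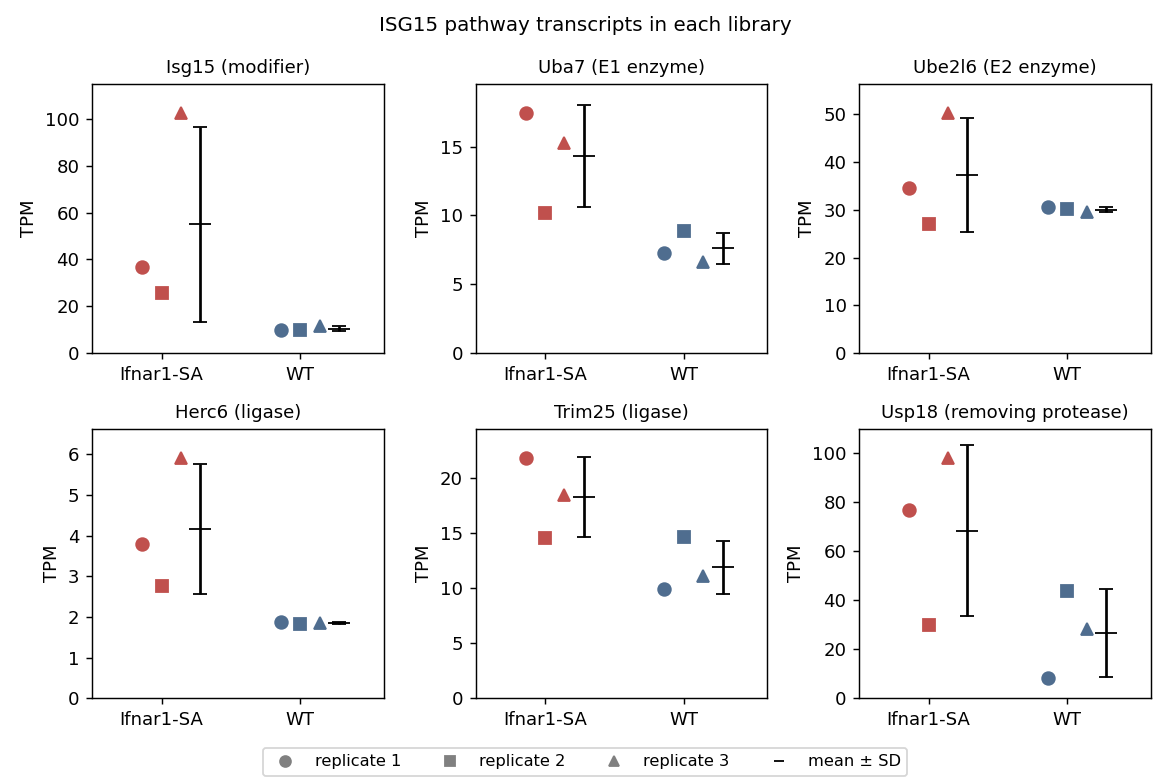
TPM of each member of the ISG15 chain in the 3 Ifnar1-SA (left) and 3 WT (right) libraries, with marker shapes for replicate numbers and black bars for mean ± SD; each panel has its own axis from 0. Isg15, Uba7 and Herc6 show no overlap between the genotypes, and Ifnar1-SA 2 is the lowest Ifnar1-SA library for all 6 genes.

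The modifier itself differed most. Isg15 (GRCm38 chromosome 4, 156199424 to 156200818, minus strand, protein-coding, 1 annotated transcript) was at 36.9, 25.6 and 103 TPM in Ifnar1-SA 1, 2 and 3, against 9.82, 9.82 and 11.7 TPM in WT 1, 2 and 3. All Ifnar1-SA libraries were higher, and the lowest of them was 2.20 times the highest WT library. The mean was 55.1 ± 41.6 TPM in Ifnar1-SA and 10.4 ± 1.07 TPM in WT (SD, n = 3 each), a 5.27-fold ratio of means. On the log2(TPM + 1) scale this came to a difference of 2.05 (standard error 0.47), with a 95% interval of 0.94 to 3.15 (limma, adjusted p = 0.838). That difference ranked 30th of the 12141 genes by size among those higher in Ifnar1-SA. Without Ifnar1-SA 3 the difference was 1.48. The Ifnar1-SA libraries spanned a 4.002-fold range for Isg15 and the WT libraries a 1.19-fold range.

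Uba7 and Ube2l6, the enzymes that activate and carry ISG15, differed in that only Uba7 was higher in all Ifnar1-SA libraries than in any WT library. Uba7 (chromosome 9, 107975505 to 107984060, plus strand, 15 annotated transcripts of which 1 is protein-coding) was at 17.5, 10.2 and 15.3 TPM in Ifnar1-SA, against 7.26, 8.89 and 6.66 TPM in WT. The groups did not overlap, although the lowest Ifnar1-SA library was only 1.15 times the highest WT library. On the log2 scale Uba7 differed by 0.81 ± 0.22 (SE), with a 95% interval of 0.29 to 1.33 (limma, adjusted p = 0.9997). Ube2l6 (chromosome 2, 84798828 to 84810335, plus strand) was at 34.5, 27.03 and 50.3 TPM in Ifnar1-SA, against 30.5, 30.04 and 29.4 TPM in WT. Here Ifnar1-SA 2 lay below all WT libraries while Ifnar1-SA 1 and 3 lay above them. The log2 difference of Ube2l6 was 0.26 with a 95% interval of −0.29 to 0.81 (limma, adjusted p = 0.9997), which spans no change as well as a 1.75-fold increase. Leaving out Ifnar1-SA 3 gave 0.03, and leaving out Ifnar1-SA 2 gave 0.46. The log2 ratio of Ube2l6 to Uba7 averaged 1.31 ± 0.36 in Ifnar1-SA and 1.86 ± 0.18 in WT, a difference of −0.55 (exact two-sided permutation p = 0.2 and 0.6 adjusted over the 3 ratios computed, where 3 against 3 libraries cannot go below 0.1). On this scale 1 Ifnar1-SA library, the third, just overlapped the WT range of this ratio, at 1.65 against 1.65 to 1.99. That overlap depended on the pseudocount. With pseudocounts of 0.1 and 0.5 the groups did not overlap, and the difference was −0.61 and −0.58. Both gave the smallest possible p (exact two-sided permutation p = 0.1, before adjustment over the 3 ratios).

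Both ligases had a higher mean in Ifnar1-SA, with library overlap for Trim25 and not for Herc6. Herc6 (chromosome 6, 57581000 to 57664632, plus strand) was the least abundant member, at 3.81, 2.77 and 5.92 TPM in Ifnar1-SA, against 1.89, 1.83 and 1.85 TPM in WT. No library overlapped, and the WT libraries lay within 1.04-fold of each other. On the log2 scale Herc6 differed by 0.81 ± 0.24 (SE, 95% interval 0.25 to 1.37, limma, adjusted p = 0.9997), and the pseudocount of 1 understates it at this level: it was 1.06 with a pseudocount of 0.1. Trim25 (chromosome 11, 88999376 to 89020293, plus strand) was at 21.9, 14.6 and 18.5 TPM in Ifnar1-SA, against 9.99, 14.6 and 11.2 TPM in WT. The groups touched, since Ifnar1-SA 2 was 0.995 times WT 2. On that scale Trim25 differed by 0.58 ± 0.21 (SE, 95% interval 0.08 to 1.07, limma, adjusted p = 0.9997).

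Usp18, which reverses the conjugation and restrains the receptor, had the second largest difference and, of the 6 members, the largest spread in WT. The gene (chromosome 6, 121245906 to 121270917, plus strand) was at 76.6, 30.02 and 97.9 TPM in Ifnar1-SA, against 8.16, 43.8 and 28.1 TPM in WT. Ifnar1-SA 1 and 3 were above all WT libraries, while Ifnar1-SA 2 lay between WT 3 and WT 2. The mean was 68.2 ± 34.7 TPM in Ifnar1-SA and 26.7 ± 17.9 TPM in WT, and the difference on the log2 scale was 1.44 ± 0.66 (SE, 95% interval −0.12 to 2.998, limma, adjusted p = 0.9997). Its value depended on single libraries: it was 0.78 without WT 1, 1.92 without WT 2 and 1.94 without Ifnar1-SA 2. The WT libraries spanned a 5.37-fold range for Usp18, and 96.03% of all genes had a smaller SD of log2 level within WT. For Herc6 and Ube2l6 that share was 1.05% and 1.35%.

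The balance between the modifier or its ligase and the removing protease showed no difference beyond the spread. The log2 ratio of Isg15 to Usp18 was −1.04, −0.22 and 0.07 in Ifnar1-SA, against 0.24, −2.05 and −1.20 in WT. The groups overlapped, with a mean difference of 0.61 (exact two-sided permutation p = 0.6, also 0.6 adjusted over the 3 ratios). This difference rested on single libraries: it was 0.93 without Ifnar1-SA 1, 0.38 without Ifnar1-SA 3, 1.23 without WT 1 and 0.08 without WT 2. For Herc6 to Usp18 the ratio was −4.01, −3.04 and −3.84 in Ifnar1-SA, against −1.66, −3.99 and −3.36 in WT, with a mean difference of −0.63 (exact two-sided permutation p = 0.6, adjusted 0.6). Both ratios were highest in WT 1, the library with the least Usp18. Without WT 1 the Herc6 to Usp18 difference was 0.04, which turned its direction, and without WT 2 it was −1.12.

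TPM is corrected for length, so levels can be set side by side between genes, though only roughly. The annotation and the summing of transcripts are not known. Uba7 also overlaps Gm20661, a protein-coding gene on its strand. Herc6 overlaps Gm45193 on its strand and Gm19244 on the other strand, and Usp18 overlaps Gm44148 on the other strand. None of these is among the genes given. In Ifnar1-SA the order of mean TPM was Usp18 (68.2), Isg15 (55.1), Ube2l6 (37.3), Trim25 (18.3), Uba7 (14.3) and Herc6 (4.17). Of these neighbours, Ube2l6 and Trim25, and Uba7 and Herc6, did not overlap over the 3 libraries, and the others did. In WT the order was Ube2l6 (29.97), Usp18 (26.7), Trim25 (11.9), Isg15 (10.4), Uba7 (7.61) and Herc6 (1.85), where Isg15 and Uba7, and Uba7 and Herc6, did not overlap. Isg15 was thus below Ube2l6 in every WT library, whereas in Ifnar1-SA it was above Ube2l6 in libraries 1 and 3 and below it in library 2. Summed over the 6 members, the libraries held 191, 110.2 and 291 TPM in Ifnar1-SA, against 67.6, 109.02 and 88.9 TPM in WT, so that the total of Ifnar1-SA 2 was close to that of WT 2. Isg15 made up 19.3%, 23.3% and 35.3% of that sum in Ifnar1-SA, against 14.5%, 9.01% and 13.1% in WT.

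Among the Ifnar1-SA libraries, number 2 was the lowest of the 3 for 6 of 6 members, Ifnar1-SA 3 the highest for 4 (Isg15, Ube2l6, Herc6 and Usp18) and Ifnar1-SA 1 the highest for 2 (Uba7 and Trim25). Relative to the WT mean, Isg15 was higher by 1.73, 1.22 and 3.18 on the log2 scale in Ifnar1-SA 1, 2 and 3, and Usp18 by 1.76, 0.44 and 2.11. In WT no library was the lowest throughout: WT 1 was lowest for 3 members, WT 3 for 2 and WT 2 for 1. Ifnar1-SA 1 and WT 2, the libraries with the higher median TPM over the genes tested, were each the highest of their genotype for Uba7 and Trim25. WT 2 was so for Usp18 too. Without both of these libraries the log2 difference was 0.76 for Uba7 and 0.59 for Trim25, against 0.81 and 0.58 with all 6.

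**Figure D2:**
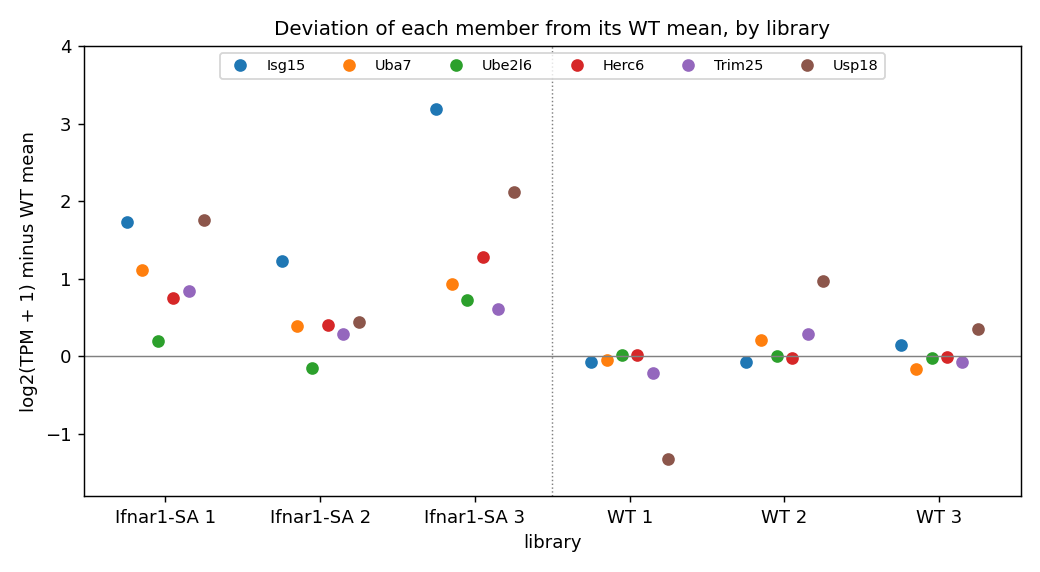
Each member's log2(TPM + 1) minus its own WT mean (y axis) in the 3 Ifnar1-SA and 3 WT libraries (x axis), with 1 colour per gene. Isg15 is 1.22 to 3.18 above its WT mean in the Ifnar1-SA libraries, Usp18 scatters most among the WT libraries, and Ube2l6 is below its WT mean in Ifnar1-SA 2.

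Other genes of the ISG15 chain, and the parallel machinery for other ubiquitin-like proteins, were measured as lists. Over all 160 genes tested in these lists, 0 passed over all genes, with 0.0577% of all genes tested passing in either direction. Among 12 tested partners of ISG15 and USP18 the median log2 difference was −0.03. Stat2, which ties USP18 to the receptor, was at 25.7, 14.4 and 25.02 TPM in Ifnar1-SA, against 9.56, 16.9 and 15.3 TPM in WT (log2 difference 0.60, limma, adjusted p = 0.9997). Ifnar2, the receptor chain that USP18 binds, averaged 64.0 ± 11.3 TPM in Ifnar1-SA and 79.3 ± 20.6 TPM in WT. Sqstm1, an autophagy adaptor, averaged 143 ± 28.9 TPM in Ifnar1-SA and 165 ± 31.97 TPM in WT. Both overlapped between the genotypes.

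Proteins reported to be modified by ISG15, mostly in human cells, had a median log2 difference of 0.06 over 12 genes, with 8 higher and 4 lower in mean. Mx1, an antiviral GTPase, was at 2.14, 1.23 and 1.97 TPM in Ifnar1-SA, against 0.540, 1.49 and 0.844 TPM in WT. Ddx58, the RNA sensor RIG-I, averaged 4.51 ± 1.198 TPM in Ifnar1-SA and 3.18 ± 0.687 TPM in WT. For both the lowest Ifnar1-SA library, number 2, lay below the highest WT library, number 2. Irf9, a part of ISGF3, was at 42.7, 27.2 and 36.4 TPM in Ifnar1-SA, against 17.985, 31.6 and 25.03 TPM in WT, with the same overlap. In the list of the receptor and ISGF3, Ifnar1 averaged 25.1 ± 3.09 TPM in Ifnar1-SA and 31.1 ± 9.51 TPM in WT. The receptor kinases averaged 29.3 ± 5.47 TPM in Ifnar1-SA and 33.9 ± 6.62 TPM in WT for Jak1, and 9.42 ± 2.38 TPM in Ifnar1-SA and 9.11 ± 1.30 TPM in WT for Tyk2.

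The enzymes of other modifiers stayed near the median of all genes. The 9 other E1 enzymes had log2 differences of −0.19 to 0.19 and the 35 other E2 enzymes of −0.36 to 0.22, with 0 members of either list wholly above WT. Uba1, the E1 of ubiquitin and the relative of Uba7, averaged 99.8 ± 17.1 TPM in Ifnar1-SA and 104.6 ± 10.04 TPM in WT. Ube2l3, the ubiquitin carrier most like Ube2l6, averaged 159.7 ± 14.4 TPM in Ifnar1-SA and 156.8 ± 19.96 TPM in WT. Smallest in p among the E1 enzymes was Uba6, at 2.35 ± 0.115 TPM in Ifnar1-SA and 2.83 ± 0.318 TPM in WT, and among the E2 enzymes Ube2g1, at 12.4 ± 0.747 TPM in Ifnar1-SA and 16.2 ± 1.46 TPM in WT (limma, adjusted p = 0.9997). Nae1 and Sae1, subunits of the NEDD8 and SUMO E1 enzymes, and the E2 genes Ube2e2 and Ube2q1 came next and likewise did not pass.

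Among 19 other ubiquitin-like modifiers the median log2 difference was −0.07. The member that stood out went the other way from Isg15: Ubd, which encodes FAT10, a ubiquitin-like protein induced by interferon-gamma and tumour necrosis factor, was at 0.422, 0.342 and 0.176 TPM in Ifnar1-SA, against 1.48, 2.09 and 4.14 TPM in WT. All Ifnar1-SA libraries were lower (log2 difference −1.38, standard error 0.29, limma, adjusted p = 0.689). In all, 3 of the 19 lay wholly below WT, as did 3.8% of all genes tested. The others were the autophagy modifiers Gabarapl1 and Map1lc3a, at 35.9 ± 0.938 TPM in Ifnar1-SA and 43.5 ± 3.20 TPM in WT for Gabarapl1, and at 26.2 ± 4.81 TPM in Ifnar1-SA and 32.9 ± 2.10 TPM in WT for Map1lc3a.

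Set beside their own families, Herc6, Trim25 and Usp18 had relatives with smaller differences in most cases. Herc1, Herc3 and Herc4 had log2 differences of −0.06 to 0.03, and Herc2 was under the filter, at 1.21, 0.998 and 0.727 TPM in Ifnar1-SA against 1.01, 1.14 and 0.873 TPM in WT. The 37 other USP proteases tested ranged from −0.45 to 0.13, with 6 higher and 31 lower in mean, while 37.1% of all genes tested were higher. Of the 37, 3 lay wholly below WT, as did 3.8% of all genes tested. Usp33, the smallest in p, averaged 4.35 ± 0.766 TPM in Ifnar1-SA and 6.11 ± 0.912 TPM in WT, and Usp53 and Usp22 followed, both lower in mean. Some TRIM genes had larger differences than Trim25 itself. Of the 35 other TRIM genes tested, 5 were wholly above WT, beside 1.97% of all genes. Trim30a, an interferon-induced TRIM gene, was at 33.4, 20.9 and 38.7 TPM in Ifnar1-SA, against 10.3, 12.6 and 9.74 TPM in WT (log2 difference 1.39, limma, adjusted p = 0.353). Trim30d was at 9.38, 5.09 and 12.5 TPM in Ifnar1-SA, against 2.15, 3.51 and 2.64 TPM in WT, and Trim34a at 7.61, 4.41 and 7.26 TPM in Ifnar1-SA, against 3.03, 3.52 and 3.44 TPM in WT. Trim12a averaged 4.25 ± 1.45 TPM in Ifnar1-SA and 2.27 ± 0.330 TPM in WT (SD, n = 3 each). Trim12c averaged 6.76 ± 1.57 TPM in Ifnar1-SA and 5.12 ± 0.484 TPM in WT (SD, n = 3 each). Its log2 difference, 0.33, was smaller than that of Trim25. These TRIM genes have close copies in the mouse genome, so how reads were shared among them is uncertain.

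**Figure D3:**
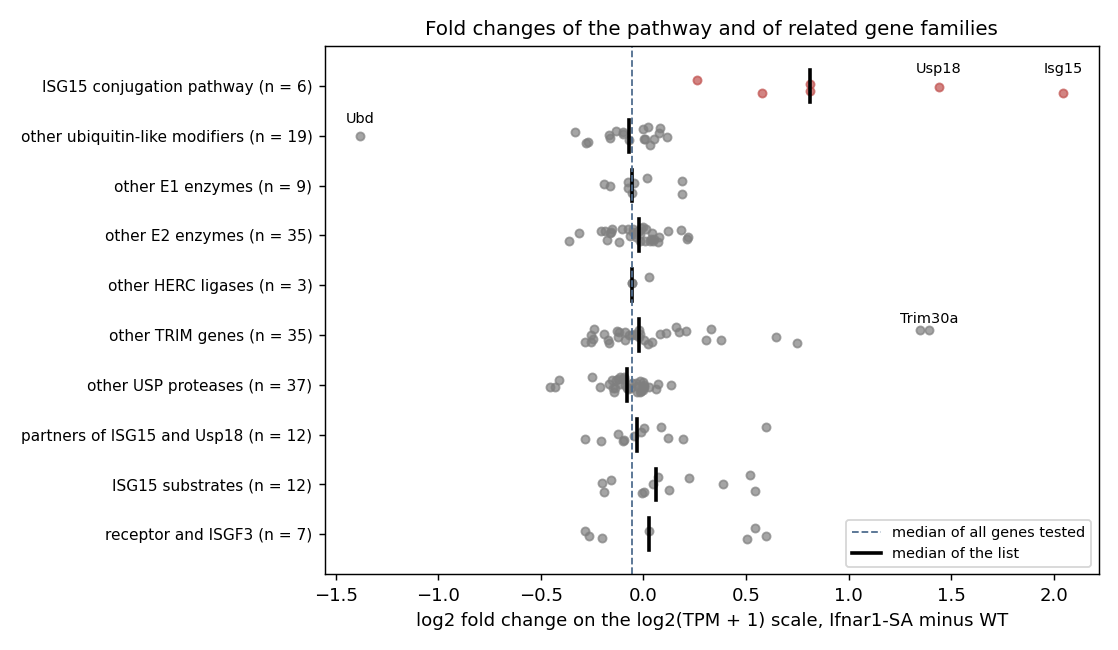
Log2 fold change (x axis, Ifnar1-SA minus WT on the log2(TPM + 1) scale) of each tested gene of the ISG15 chain (red) and of related lists (grey), with a black bar at each list's median and a dashed line at the median of all genes tested. The chain's median is 0.81, the medians of the other lists lie between −0.08 and 0.06, Ubd lies at −1.38 and Trim30a at 1.39.

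The genes whose pattern over the 6 libraries was most like that of a member were found by the root-mean-square difference of log2 levels, each taken from the gene's own mean, as a description. For Isg15 these were Ifi27l2a (0.29), Xaf1 (0.35) and Ifi44 (0.41). Ifi27l2a was at 780.1, 714 and 1482 TPM in Ifnar1-SA, against 243, 240.3 and 319 TPM in WT. For Uba7 they were Helz2 (0.09), Sp100 (0.10) and Irgm1 (0.11), and for Herc6 Zbp1 (0.08), Cmpk2 (0.08) and Il18 (0.09). Mx1 (0.07), Sp100 (0.08) and Parp10 (0.09) came nearest to Trim25, and Ifih1, Trim12c and Abhd1 (0.13 each) to Ube2l6. No gene came as near to Usp18, for which Mir423 (0.50), Ifi44 (0.51) and Defa4 (0.51) were closest. The measure is not scaled to a gene's own spread, and Usp18 had a log2 SD of 0.88 in Ifnar1-SA and 1.18 in WT. Its larger distances therefore do not show that no gene has a like pattern. Mir423 and Defa4 were both listed at 0 in WT 1, the library with the least Usp18. Between members, Trim25 was the 10th nearest gene to Uba7 (0.16), whereas Usp18 was 55th nearest to Isg15 (0.81) and Ube2l6 165th (0.96). Such ranks depend on the gene they start from. Seen from Trim25, Uba7 was 26th, and seen from Usp18, Isg15 was 59th. Seen from Ube2l6, however, Isg15 was only 11480th, so a rank by itself does not show likeness.

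**Figure D4:**
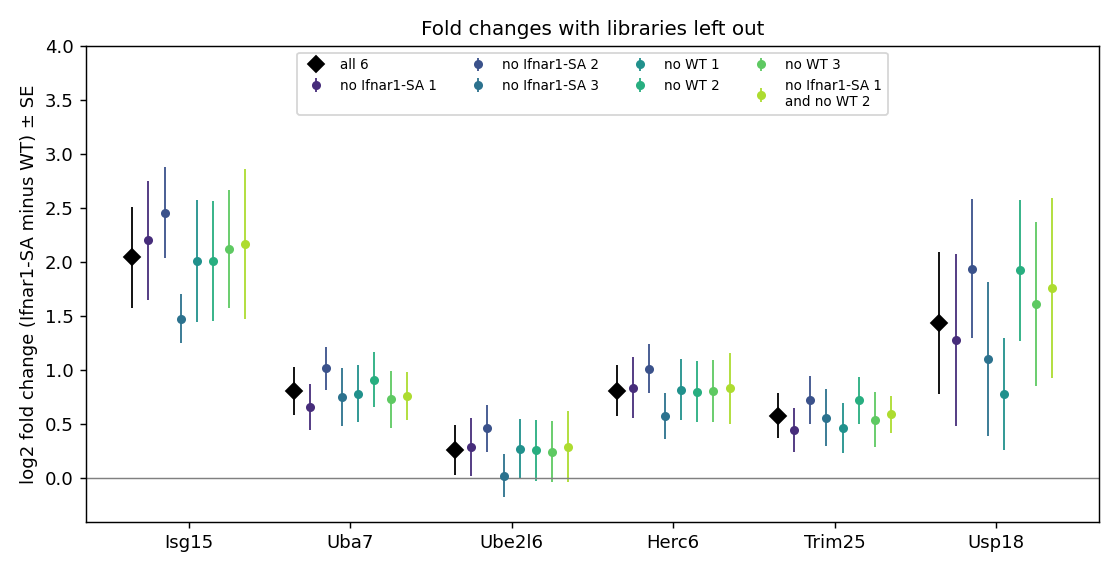
Log2 fold change of each member (Ifnar1-SA minus WT) ± SE from limma with all 6 libraries (black diamond) and with 1 or 2 libraries left out (coloured circles). Every value is above 0, Isg15 runs from 1.48 to 2.46 and Usp18 from 0.78 to 1.94.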

How the data were processed

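The deposited file, 1 table, holds TPM per gene as the authors made them, in 6 columns each matched to the title of 1 sample. Per the submitters' processing notes, the tool was Salmon and the builds mm10 and GRCm38. Its version, the annotation, the summing of transcripts to genes and any filtering were not given in the sources used here. Gene totals hide which of a gene's transcripts changed, and since TPM are shares, an abundant transcript pushes the rest down.

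Values were tested as log2(TPM + 1), a scale that understates changes of low genes, for genes averaging 1 TPM or more over the 6 libraries. The test was limma 3.58.1 (R 4.3.3) with an intensity trend, two-sided, without a replicate block, with p-values adjusted by Benjamini-Hochberg across 12141 genes and called at 0.05. Depth is unknown, so no counting interval is given. Ratios of members were tested with exact permutation over libraries. The fit was also tested on simulated data with known changes.

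The members, lists, ratios and tests were chosen with earlier results of these data known. Named genes are the members, the 3 genes of smallest p in each list (all genes in lists of 7 or fewer) and the 3 most alike in pattern to each member. Uba1 and Ube2l3 were named beforehand as relatives. Gabarapl1, Map1lc3a, Trim12a and the genes used to describe libraries and markers were chosen after their values were seen, unless they fall under that rule. The values of 1 gene of these lists are not reported here. Gene positions are from GENCODE M21 on GRCm38, matched by symbol, and promoters from RefSeq on GRCm38.p6, taking the first window listed for a gene. Promoter positions rest on RefSeq starts, which can differ from GENCODE's. Alternatives are given in the closing part. Tables and exact tests were made in Python 3.11.15 with pandas 2.3.3 and numpy 2.4.6, and figures with matplotlib 3.10.9.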

Additional observations from a re-analysis of the deposited data

How the results depend on the processing

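All 6 members kept a positive log2 difference and stayed above an adjusted p of 0.05 in every alternative that gave a value (18 for each, 17 for Herc6, which a mean of at least 5 TPM removed). For Isg15 the lowest adjusted p was 0.0618, with small RNA genes left out, and the range of its difference was 1.48 to 2.46. Isg15 and Uba7 had an unadjusted p under 0.05 in 18 of 18 alternatives, Herc6 in 16 of 17, Trim25 in 13 of 18, Usp18 in 3 of 18 and Ube2l6 in 0 of 18. The count of members with every Ifnar1-SA library above WT was 3. It ranged from 3 to 6 with 1 library left out (6 without Ifnar1-SA 2, 5 without WT 2). Without both WT 2 and Ifnar1-SA 1 it was 5. With median-of-ratios and with quantile scaling it was 4, with Trim25 added. Leaving a library out can only keep or raise this count, and Ifnar1-SA 2 was the lowest Ifnar1-SA library for all 6 members. No share over all genes is given at these settings, so the higher counts are a description and no added support. The Isg15 to Usp18 ratio differed by 0.61 with all 6 libraries and by 0.08 to 1.23 with 1 library left out. The Herc6 to Usp18 ratio differed by −0.63 with all 6 libraries and by −1.12 to 0.0403 with 1 library left out, the last without WT 1. For Ube2l6 to Uba7 the difference was −0.55 with all 6 libraries and −0.72 to −0.37 with 1 library left out. Its exact two-sided permutation p, unadjusted, was 0.2 as planned and with median-of-ratios scaling. It was 0.1 with pseudocounts of 0.1 and 0.5, with quantile scaling and with small RNA genes left out. Genes passing over the whole table numbered 7. That count was 12 with array weights, 12 with robust empirical Bayes, 15 and 14 with pseudocounts of 0.1 and 0.5, 1 with a mean of at least 5 TPM, 4 without small RNA genes, 15 to 28 with 1 library left out, and 0 without both WT 2 and Ifnar1-SA 1. The cause was not tested. The median over all genes was −0.15 without Ifnar1-SA 1 and −0.11 without WT 3.

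With a replicate block 0 genes passed, and Trim25 had an unadjusted p of 0.0683. Deviations of same-numbered libraries correlated at −0.11, −0.11 and 0.15, and only the third pair correlated best with its own number, so the libraries share a number and no pairing was assumed. Of the 9 pairs across genotypes the highest correlation was 0.25, between Ifnar1-SA 1 and WT 2. Unknown depth limits what can be said of low genes, among them Herc6, Ubd and Mx1.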
